A study of Homo sapiens and Mus musculus with 22 samples.

Results

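The genes described here are 37 genes of amino acid supply and tRNA charging that are widely described as targets of ATF4. They were chosen by name, by matching the gene symbol in each expression table in either letter case, and all 37 were found in each of the 3 tables, among 22584 genes in the SETDB1 set, 21865 in the ATG5 set and 22687 in the cGAS set. RNA was measured by poly(A) sequencing in U2OS, a human osteosarcoma line, and in L929, a mouse fibroblast line, as FPKM (fragments scaled to transcript length and to the size of the library). The first set of U2OS groups was wild type (WT), SETDB1 KO1 and SETDB1 KO2, all mock and with 2 libraries each. The other set was U2OS with a vector or an ATG5 KD (knockdown), each mock and with BIX-01294, where 1 value per group stands for 2 replicates per the labels. The L929 groups were cGAS WT and cGAS KO, each mock and BIX, with 1 value per group. BIX-01294 (BIX below), which blocks EHMT1 and EHMT2, enzymes that methylate histone H3 at lysine 9, was given at 10 µM for 12 h. A treatment note attached to all RNA samples says that the cells received BIX, while the sample names and treatment fields say MOCK for part of them, and the names were followed.

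The labels do not say how the knockdown or the knockouts were made, or whether a line is 1 clone. The mean FPKM of SETDB1 over 2 libraries (± SD) was 9.65 ± 0.464 for WT and lower for KO1 (6.46 ± 0.797) and KO2 (7.12 ± 0.321). ATG5 mRNA was 11.3 FPKM in vector mock and 10.1 in the value labelled ATG5 KD mock, and 12.3 and 13.4 with BIX, so the mRNA did not show the label with BIX. The cGAS gene of the mouse, Mb21d1, was at 2.82 and 3.47 FPKM in cGAS WT (mock, BIX) and 1.19 and 4.41 in the values labelled cGAS KO, so "KD" and "KO" name the labels in what follows. Both lines had 5 of 6 mesenchymal markers at an FPKM of 1 or more. No epithelial marker reached 1 in L929, while KRT18 and 2 others did in U2OS. The summed FPKM of the blood markers was 1.79 to 3.32 in the SETDB1 set. It was 0.238 to 0.871 for 4 of 5 in the ATG5 set, whose table joins CD68 with EIF4A1. In L929 the sum was 8.49 to 82.7, where CD68 alone was 5.11 to 80.3, and CD14 and SPI1 also reached 1 (up to 3.23 and 1.73). Of 4 osteoblast markers (3 found in U2OS), 3 reached 1 in each set. Their summed FPKM was at most 8.18 in the SETDB1 set and 23.1 in the ATG5 set. In L929 it was 690 to 1810, with SPP1 alone at 668 to 1800, so the sum was higher in the fibroblast line than in the osteosarcoma line. In L929 the cGAS WT BIX library held about 0.747 of the reads of cGAS WT mock, and the parts of depth and of these markers in the results were not tested.

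ATF4 is a transcription factor whose protein is made when the initiation factor eIF2 is phosphorylated, the switch of the integrated stress response, which slows translation in general and lets the ATF4 reading frame be translated. ATF4 pairs with C/EBP proteins and binds the C/EBP-ATF response element, and through it cells that lack amino acids or carry unfolded proteins raise amino acid synthesis, amino acid import and the charging of tRNAs. The genes below are ordered by these roles: enzymes, transporters, tRNA synthetases, then the regulators that act beside ATF4 or restrain mTORC1, the kinase complex that couples amino acids to growth.

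The response element is shown first, since it is what many of these promoters share. The human RefSeq promoters (build GRCh38.p14, 250 bases before to 50 after the start site) were searched on both strands for TGATGNAA, and 30 of the 37 members had an entry. A match was present in 14 of these 30 genes (46.7%), against 1217 of 27305 genes (4.46%) in the same table. The choice of members by their known link to ATF4 fixes part of that contrast, and it was not tested. The lines show 9 of these 14, across the roles. Each line gives the strand of the gene 5′ to 3′, with the match in capitals (TTNCATCA is the same element on the other strand) and 10 bases on either side where the window holds them.
ASNS, chr7:97872459-97872486, minus strand: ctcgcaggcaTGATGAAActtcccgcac
CEBPG, chr19:33374061-33374088, plus strand: gcgcggcgtcTGATGCAAcctgccggca
SLC3A2, chr11:62881726-62881748, plus strand: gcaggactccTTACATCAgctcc
SLC7A1, chr13:29595664-29595691, minus strand: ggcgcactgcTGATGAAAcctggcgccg
SLC1A4, chr2:64989382-64989409, plus strand: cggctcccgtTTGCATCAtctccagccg
AARS, chr16:70289676-70289703, minus strand: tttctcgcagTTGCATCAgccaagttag
TARS, chr5:33440957-33440984, plus strand: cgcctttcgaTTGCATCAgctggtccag
MARS, chr12:57488054-57488081, plus strand: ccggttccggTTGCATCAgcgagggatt
CHAC1, chr15:40953252-40953279, plus strand: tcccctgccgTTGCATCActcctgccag

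The other 5 genes with a match were SLC1A5, CARS, GARS, IARS and NARS. The first base of the match lay 68 bases before the start site in ASNS and 42 before it in CEBPG, while the matches of SLC3A2, SLC7A1, TARS and NARS lay after it. A match is a description of these letters and not a bound site. No match was found in this window in 16 members, among them PHGDH, PCK2, SLC38A2, SARS, CEBPB, SESN2 and DDIT4.

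BIX in U2OS. Each background (vector, KD) gave 1 log2 ratio of BIX over mock on the log2(FPKM + 1) scale, and the 4 ratios of both lines were fitted together with limma, with a call at an adjusted p (Benjamini-Hochberg, over 10128 genes) below 0.05. In this fit each gene has 1 variance over both lines. The SE and adjusted p given for U2OS thus also carry the spread between the L929 ratios, and the reverse. Of 36 members tested, 16 rose and 4 fell, and the median member was at 0.32. Over all genes tested, 22.0% were called higher and 19.1% lower (41.1% in all), with a median of 0.0, so the lower calls of members were fewer than the background share and the higher calls more. STC2, a secreted glycoprotein, was below an FPKM of 1 in every value of the series and was not tested. All 20 called members moved the same way in both backgrounds, which a call on the mean of 2 ratios largely requires, so it is no separate support. In these bulk samples, more cells of a kind and more RNA per cell cannot be told apart.

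**Figure D1:**
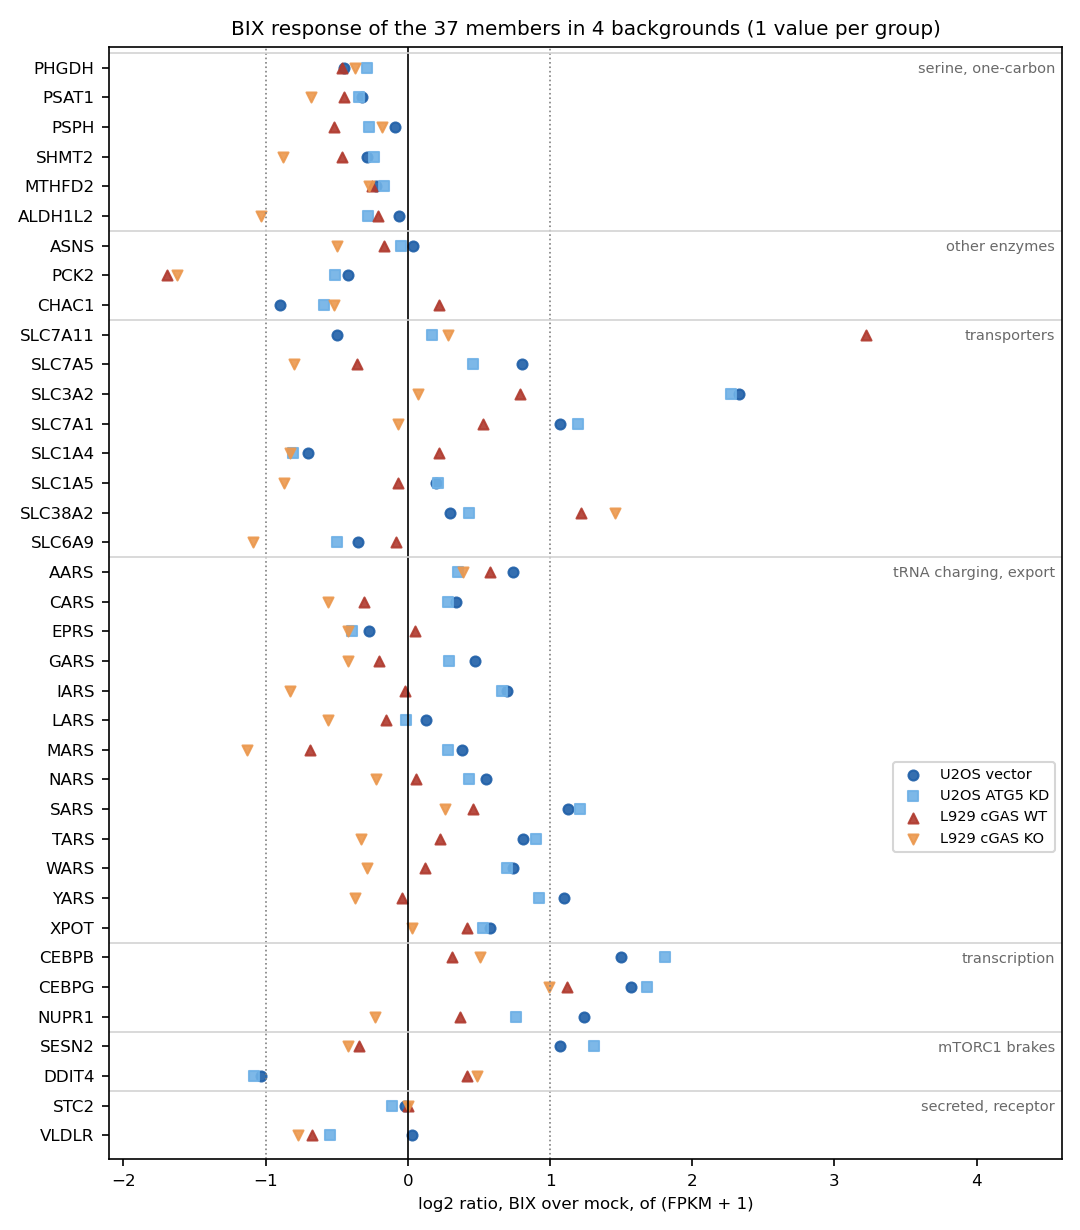
Log2 ratio of BIX over mock, of FPKM + 1 (x axis), for each of the 37 members (rows, grouped by role) in U2OS vector, U2OS ATG5 KD, L929 cGAS WT and L929 cGAS KO (1 symbol each, 1 value per group, so no error bar), with dotted lines at 2-fold. The U2OS symbols of SLC3A2 lie at 2.33 and 2.27, the serine enzymes lie left of 0 in all 4 backgrounds, and SLC7A11 in cGAS WT stands apart at 3.22.

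Of 8 transporters 4 rose, and the rise of SLC3A2 was the largest of any member. SLC3A2, the heavy chain that carries the light chains SLC7A5 and SLC7A11 to the cell surface, went from 77.5 FPKM to 394 with BIX in vector cells and from 84.9 to 414 in the KD cells, which is 5.08-fold and 4.87-fold. Both BIX values lay far above both mock values, and the log2 difference was 2.30 (limma, SE 0.18, adjusted p = 0.00436). SLC7A1, the carrier of cationic amino acids, went from 12.3 to 26.8 and from 14.8 to 35.3 FPKM (log2 difference 1.13, SE 0.17, limma adjusted p = 0.00969). SLC7A5, the light chain for leucine and other large neutral amino acids, went from 66.4 to 117 and from 86.0 to 119 FPKM, and SLC38A2, a carrier of small neutral amino acids, from 92.6 to 114 and from 74.6 to 101. Both rose by less, with log2 differences of 0.63 and 0.37 (limma adjusted p = 0.0309 and 0.0399).

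The other 4 transporters did not pass. The cystine carrier SLC7A11 was 13.1 and 8.94 FPKM (mock, BIX) in vector and 5.70 and 6.53 in the KD value, so its 2 ratios had opposite signs. SLC1A4 and SLC6A9, carriers of small neutral amino acids and of glycine, were lower with BIX in both backgrounds, SLC1A4 at 5.61 and 3.08 FPKM in vector and 6.91 and 3.52 in KD (log2 difference -0.75, limma adjusted p = 0.0823). The glutamine carrier SLC1A5 is joined with AP2S1 in the U2OS table and was 194 to 255 FPKM there, so its own level cannot be told apart from that of AP2S1.

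The tRNA synthetases form the largest group, 13 members with the tRNA export receptor XPOT, and 8 of them rose while none fell. SARS, which charges tRNA with serine, went from 82.8 to 183 FPKM in vector and from 106 to 247 in KD (log2 difference 1.17, SE 0.09, limma adjusted p = 0.00412). YARS, for tyrosine, went from 42.0 to 91.6 and from 57.7 to 110 FPKM (log2 difference 1.01, SE 0.12, limma adjusted p = 0.00632). TARS, WARS, XPOT, AARS, NARS and GARS rose by 0.85, 0.72, 0.56, 0.54, 0.49 and 0.38 on the log2 scale. AARS and XPOT are joined with EXOSC6 and TBK1 in the U2OS table. Not called were IARS (0.68, limma adjusted p = 0.0561), MARS (0.33), CARS (0.31), LARS (0.06, joined with PLAC8L1) and EPRS, the glutamyl-prolyl enzyme, which alone was below 0 (-0.33, limma adjusted p = 0.124). The ratios of IARS were close in U2OS (0.7 in vector, 0.66 in KD) and apart in L929 (-0.02 in cGAS WT, -0.83 in cGAS KO).

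The enzymes did not rise with them. PHGDH, which takes the first step from glycolysis to serine, was 91.4 and 66.7 FPKM (mock, BIX) in vector and 119 and 96.5 in KD, and fell (log2 difference -0.37, SE 0.08, limma adjusted p = 0.0271). The 5 other serine and one-carbon members, PSAT1, PSPH, SHMT2, MTHFD2 and ALDH1L2, were below 0 without a call (the group's log2 differences ran from -0.37 to -0.17). ALDH1L2 was under an FPKM of 1 in all values of the ATG5 set. ASNS, which makes asparagine and is often used as a readout of ATF4, was 34.5 and 35.5 FPKM in vector and 48.8 and 47.0 in KD. Its log2 difference of -0.01 (SE 0.11, limma adjusted p = 0.977) was smaller than its error. PCK2, the mitochondrial enzyme that makes phosphoenolpyruvate, and CHAC1, which degrades glutathione, fell by 0.46 and by 0.74 on the log2 scale (limma adjusted p = 0.0228 and 0.0489), and CHAC1 was low throughout (5.04 and 2.24 FPKM in vector, 5.53 and 3.34 in KD).

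All 3 transcription regulators rose. CEBPG, a dimer partner of ATF4, went from 17.1 to 52.7 FPKM in vector and from 15.9 to 53.2 in KD (log2 difference 1.62, SE 0.09, limma adjusted p = 0.00402). CEBPB, a related factor, went from 55.3 to 158 and from 41.8 to 149 FPKM (log2 difference 1.65, SE 0.11, limma adjusted p = 0.00402). NUPR1, a small stress-induced chromatin protein, went from 54.6 to 131 and from 64.2 to 110 FPKM (log2 difference 1.00, limma adjusted p = 0.0181). ATF4 mRNA itself went from 268 to 623 and from 352 to 925 FPKM (log2 difference 1.30, SE 0.10, limma adjusted p = 0.00412).

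The 2 genes that restrain mTORC1 moved in opposite directions. SESN2, a leucine-binding inhibitor, went from 12.6 to 27.5 FPKM in vector and from 13.9 to 35.8 in KD (log2 difference 1.19, SE 0.11, limma adjusted p = 0.00465). DDIT4, which acts through the TSC complex, went from 23.4 to 11.0 and from 24.8 to 11.2 FPKM (log2 difference -1.05, SE 0.10, limma adjusted p = 0.00492). For each gene the mock and BIX values did not overlap. VLDLR, a lipoprotein receptor, was not called (-0.26).

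**Figure D2:**
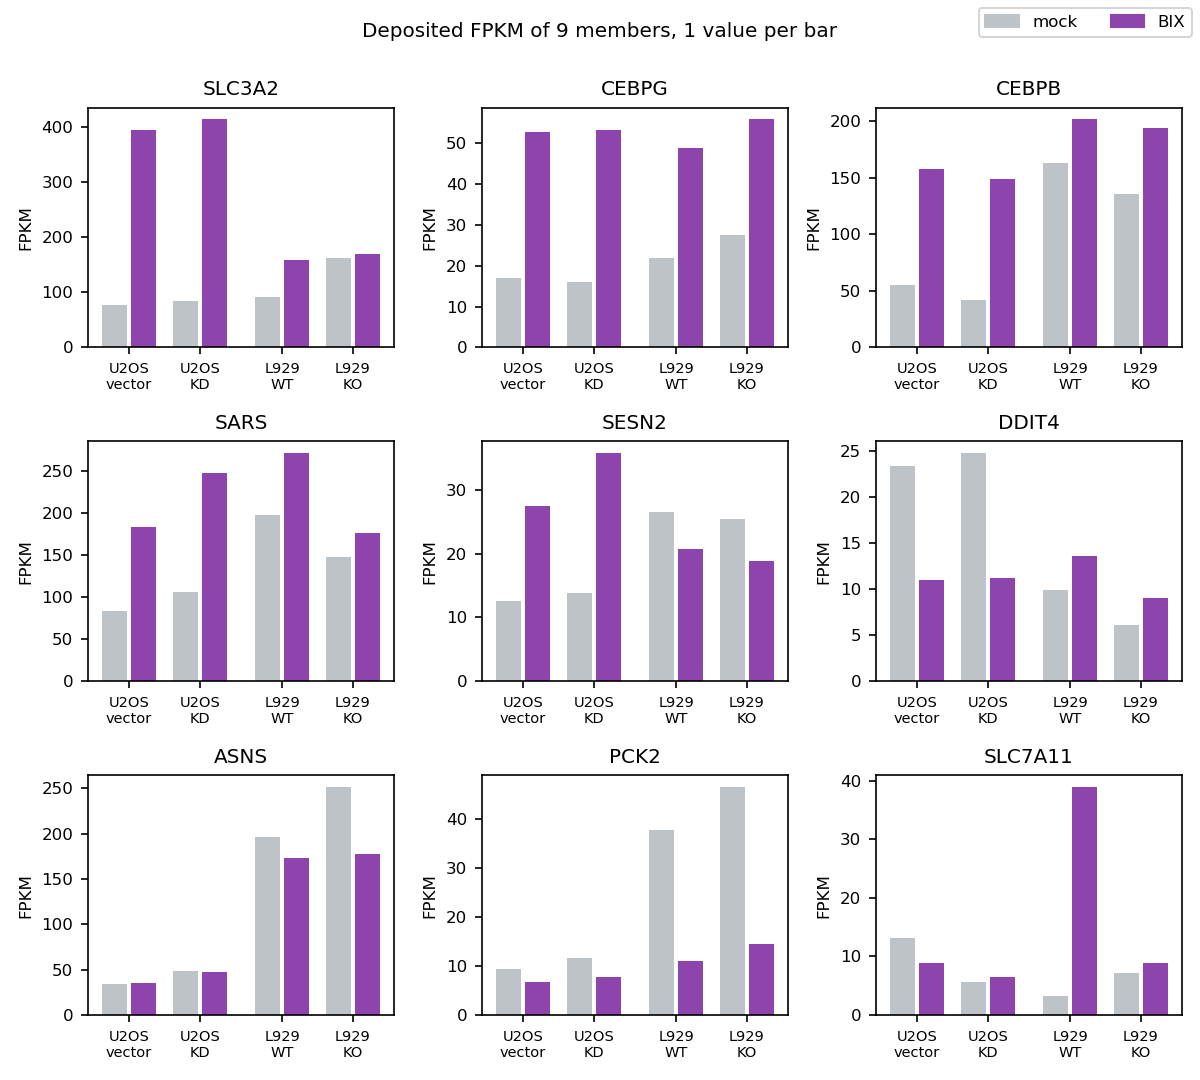
Deposited FPKM (y axis, from 0, a scale of its own in each panel) of 9 members in the 4 backgrounds, grey for mock and purple for BIX, 1 value per bar and so no error bar. SLC3A2 reaches 394 and 414 FPKM with BIX in U2OS, ASNS has bars of like height in U2OS (34.5 and 35.5 in vector), and the tall SLC7A11 bar is the cGAS WT BIX value of 39.0.

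The counts depend on having both U2OS ratios and on which genes enter the fit. Of the 10128 genes, 79 had exactly equal log2 ratios, with no rounding, in both U2OS backgrounds and 491 in both L929 backgrounds, and 686 and 1566 stayed under an FPKM of 1 in all values of that line. With these kept, no gene was called in either line without the vector or without the KD ratio, and each of these fits leaves 1 ratio in U2OS. Among the 7876 genes at an FPKM of at least 1 in both lines, 9 of 35 members were called without the vector ratio (8 higher, 1 lower, all genes 11.6%) and 10 without the KD ratio (9 higher, 1 lower, all genes 10.2%), with SLC3A2, SARS, CEBPB, CEBPG, SESN2 and DDIT4 called in each. With U2OS fitted on its own, 29 of 36 members were called, and 55.8% of all genes. Genes with a promoter match did not stand apart plainly: 7 of 14 rose and 1 fell (median log2 difference 0.44), against 7 and 3 of 15 without a match (median -0.20), a difference that was not tested.

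A further 7 lists of other genes of the pathway were set beside the members. Of 13 switches of the integrated stress response, 10 rose and 1 fell in U2OS (median log2 difference 1.15), led by DDIT3, the pro-apoptotic factor CHOP (4.89), PPP1R15A, the phosphatase subunit that reverses eIF2 phosphorylation (4.43), and ATF3 (3.81). Of the 11 other cytosolic synthetases and scaffold proteins, 1 rose (AIMP1, 0.54) and 2 fell (QARS, -0.76, and AIMP2, -0.55), with a median of -0.09 against 0.54 for the member synthetases. Mitochondrial synthetases gave 2 higher and 7 lower of 17 (median -0.29), with SARS2 at -0.94, AARS2 at -0.80 and NARS2 at 0.78. The synthetases that rose were thus mostly members, while the choice of members by their known link to ATF4 fixes part of that contrast, and it was not tested.

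Of 11 other serine, glycine and one-carbon enzymes tested, none rose and 4 fell (median -0.42), with SHMT1 at -0.91, MTR at -0.72 and DLD at -0.52. Other enzymes of amino acid synthesis gave 2 higher and 3 lower of 17 (median -0.14), with the proline enzyme PYCRL at -1.60 and GOT1, an aspartate aminotransferase, at 0.59. Other transporters gave 3 higher and 4 lower of 16 (median 0.19), and the 3 that rose most were SLC38A1 (1.62), SLC6A15 (1.51) and SLC36A4 (1.16). The list of endoplasmic reticulum chaperones, which follow other arms of the unfolded protein response, also holds transcription factors of those arms, XBP1 and ATF6. Of its 13 tested genes, 1 rose (DNAJB9, 0.93) and 3 fell, among them SDF2L1 (-1.59) and HSPA5, the main chaperone BiP (-0.61).

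**Figure D3:**
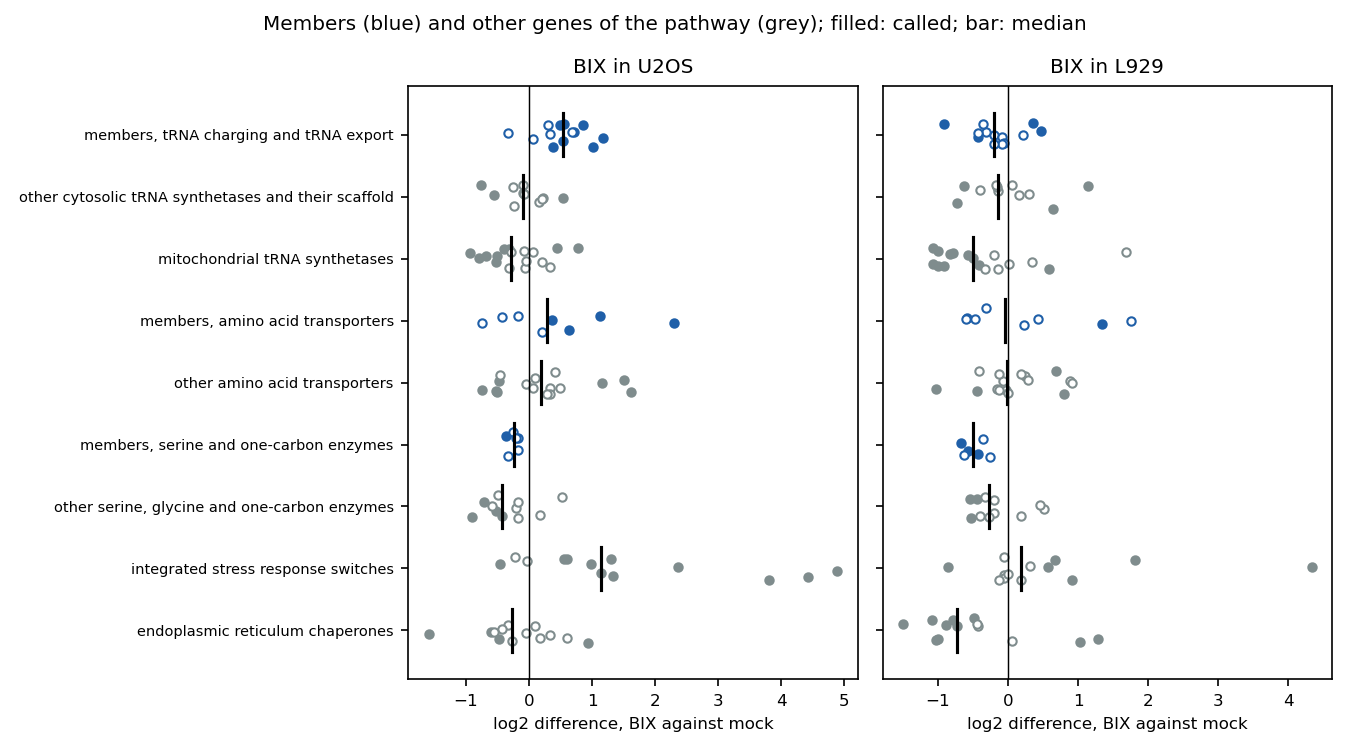
Log2 difference of BIX against mock (x axis) in U2OS (left) and L929 (right) for each tested gene of 3 member groups (blue) and 6 other lists (grey), filled where called by limma, with a black bar at the list median. In U2OS the median is 0.54 for member synthetases and 1.15 for the stress response switches, against -0.09 for the other cytosolic synthetases.

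BIX in L929. In the mouse line 6 members rose and 9 fell of 36 tested, with a median log2 difference of -0.28. Over all genes 19.0% were called higher and 22.5% lower (41.5% in all), so the share of members called was close to the background. With L929 fitted on its own, limma called none of the 10128 genes. At an unadjusted p below 0.05 were 10 of 36 members and 3233 genes in all. Among the 8775 genes at an FPKM of at least 1 in that line limma called 12 members, 4 higher and 8 lower, and 3335 genes (38%). All 15 called members moved the same way in the cGAS WT and cGAS KO backgrounds, which again follows largely from how a call is made.

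SLC38A2 rose most among the called members, from 141 to 330 FPKM in cGAS WT and from 228 to 631 in cGAS KO (log2 difference 1.34, SE 0.10, limma adjusted p = 0.00441). CEBPG went from 21.9 to 48.9 and from 27.6 to 55.9 FPKM (log2 difference 1.06, SE 0.09, limma adjusted p = 0.0046). AARS, DDIT4, CEBPB and SARS rose by 0.48, 0.45, 0.41 and 0.36. For DDIT4 the values were 9.95 and 13.6 FPKM (mock, BIX) in cGAS WT and 6.13 and 9.0 in cGAS KO, and for CEBPB 163 and 202, and 136 and 194. ATF4 mRNA went from 507 to 875 and from 568 to 1160 FPKM (log2 difference 0.91, SE 0.10, limma adjusted p = 0.00548).

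PCK2 fell most, from 37.8 to 11.0 FPKM in cGAS WT and from 46.7 to 14.5 in cGAS KO (log2 difference -1.66, SE 0.10, limma adjusted p = 0.00441). Among synthetases MARS fell from 60.3 to 36.9 and from 49.9 to 22.2 FPKM (log2 difference -0.91, limma adjusted p = 0.00912) and CARS fell by 0.43. Of the serine and one-carbon enzymes SHMT2, PSAT1 and PHGDH fell by 0.67, 0.56 and 0.42, and all 6 of the group were below 0. VLDLR, SLC7A5 and SESN2 fell by 0.72, 0.58 and 0.38. ASNS was 196 and 173 FPKM in cGAS WT and 252 and 178 in cGAS KO and did not pass (log2 difference -0.34, limma adjusted p = 0.0671).

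The 2 L929 backgrounds parted for some members. SLC7A11 went from 3.28 to 39.0 FPKM with BIX in cGAS WT, which is 11.9-fold, and was 7.19 and 8.96 FPKM in cGAS KO. With ratios this far apart it was not called (log2 difference 1.75, SE 0.71, limma adjusted p = 0.113), though it was with L929 fitted on its own over expressed genes (limma adjusted p = 0.0171). SLC3A2, its heavy chain, was 90.7 and 158 FPKM in cGAS WT and 162 and 170 in cGAS KO (log2 difference 0.43, limma adjusted p = 0.125). The BIX ratio was lower in cGAS KO than in cGAS WT for 30 of 36 members (83.3%), against 46.2% of 11671 genes, with a median difference of -0.35 over members. The members with the largest such gaps were SLC7A11 (-2.94), SLC1A4 (-1.05) and SLC6A9 (-1.01). Each gap compares single values, has no test, and includes the cGAS WT BIX library of lower depth. In U2OS the KD ratio was below the vector ratio for 22 of 35 members (62.9%, all genes 47.3%), with a median gap of -0.05.

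Of the other lists in L929, the stress response switches gave 5 higher and 1 lower of 13 (median 0.19), led by PPP1R15A (4.33), DDIT3 (1.81) and ATF4. ATF3, which rose in U2OS, stayed under an FPKM of 1 in all L929 values. The chaperone list, which includes XBP1 and ATF6, gave 2 higher and 8 lower of 13 (median -0.73), with SDF2L1 at -1.49, DNAJB9 at 1.29 and CRELD2 at -1.08. Mitochondrial synthetases gave 1 higher and 10 lower of 17 (median -0.49), with VARS2 and RARS2 at -1.06 and -1.0. Other cytosolic synthetases and scaffold proteins gave 2 higher (EEF1E1, 1.15, and RARS, 0.65) and 2 lower of 11, with VARS at -0.73. Other serine and one-carbon enzymes gave none higher and 3 lower of 11 (MTHFD1L, MTR and SHMT1). Enzymes of amino acid synthesis gave 1 higher and 6 lower of 17, with BCAT2, GPT2 and ASS1 at -1.53, -1.29 and -0.91. Other transporters gave 2 higher (SLC6A6, 0.80, and SLC38A7, 0.69) and 2 lower of 16, with SLC38A10 at -1.03.

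The lines compared. A test of the difference between the U2OS and L929 responses called 16 of 36 members, 14 of them higher in U2OS and 2 lower, where 26.5% of all genes were called (15.3% higher, 11.2% lower). Of the called members SLC3A2 had the largest gap (1.87, SE 0.26, limma adjusted p = 0.0182), then SESN2 (1.57, SE 0.15, limma adjusted p = 0.0154). The gap of SLC7A11 was wider and was not called (-1.92, SE 1.0, limma adjusted p = 0.209). Among synthetases MARS, YARS, TARS, SARS, WARS, CARS, GARS and NARS were called, with gaps between 0.57 and 1.24, so 8 of 13 differed and each of these was higher in U2OS. Of the serine and one-carbon enzymes none was called, with gaps of 0.04 to 0.41 in 5 of them, while ALDH1L2 was too low in U2OS to compare. DDIT4 (-1.51, SE 0.14, limma adjusted p = 0.015) and SLC38A2 (-0.97, SE 0.14, limma adjusted p = 0.0183) were lower in U2OS. The lines differ in species and culture medium and their tables were normalised separately, which cannot be told apart from the line. Without the cGAS WT ratio 26 members were called (39.2% of all genes), and without the vector or the KD ratio none. Among genes at an FPKM of at least 1 in both lines, 4 and 8 of 35 were called without these (all genes 4.23% and 3.48%).

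**Figure D4:**
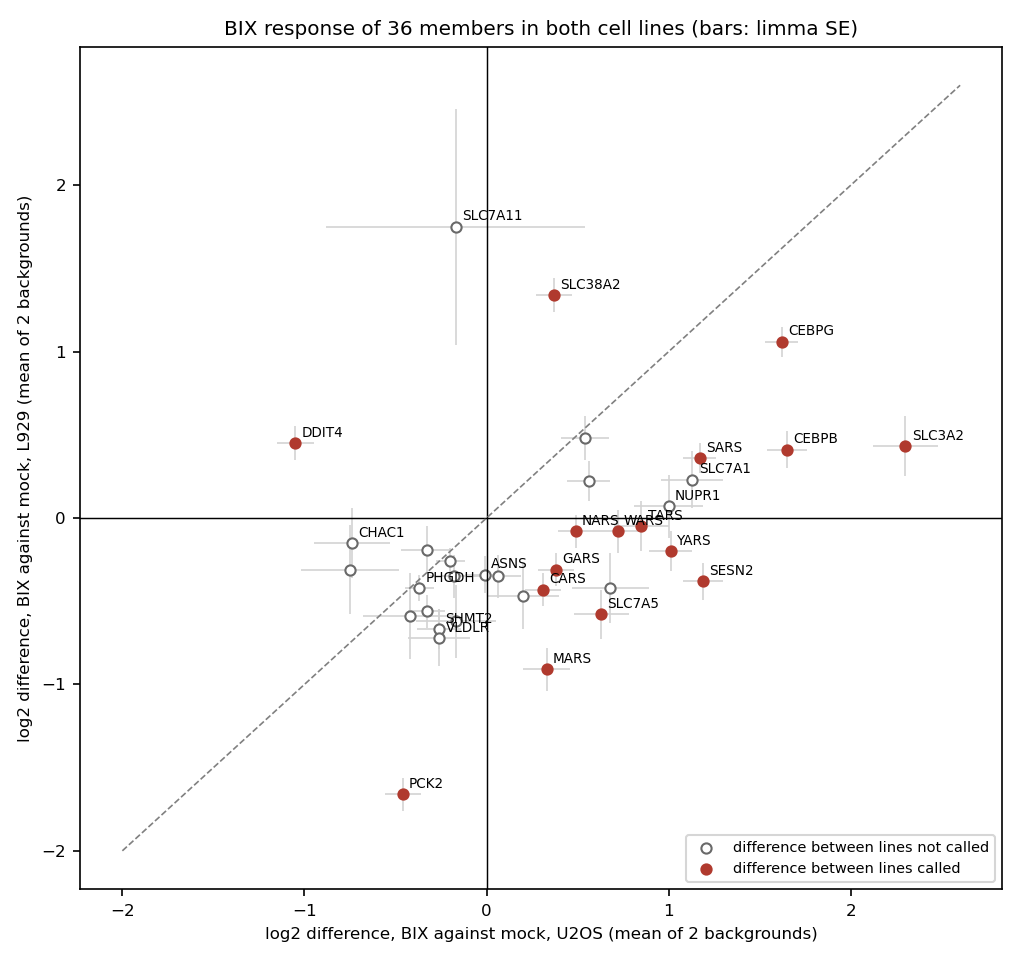
Log2 difference of BIX against mock in U2OS (x axis) and L929 (y axis) for the 36 tested members, each the mean of 2 backgrounds with limma standard errors as bars. Filled points differed between lines, the dashed line marks equal responses, and DDIT4 lies at -1.05 in U2OS and 0.45 in L929.

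Called higher in both lines were AARS, CEBPB, CEBPG, SARS and SLC38A2, and called lower in both were PCK2 and PHGDH. DDIT4, SESN2 and SLC7A5 were called in opposite directions. In neither line were ALDH1L2, ASNS, EPRS, IARS, LARS, MTHFD2, PSPH, SLC1A4, SLC1A5, SLC6A9 and SLC7A11 called. The mean over the 4 backgrounds called 13 members higher and 7 lower (55.7% of all genes, 27.4% higher and 28.3% lower), so here the members were called no more often than other genes.

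Counted singly at 2-fold of FPKM + 1, without a test, BIX gave 8 members higher and 1 lower in vector, where 10.7% of all genes were 2-fold apart (6.36% higher, 4.31% lower). It gave 6 and 1 in KD (11.7%, as 8.05% and 3.7%), 3 and 1 in cGAS WT (13.6%, as 7.42% and 6.15%) and 1 and 4 in cGAS KO (22.9%, as 13.0% and 9.86%). The member higher by 2-fold in cGAS KO on this scale was SLC38A2, and CEBPG lay just short of it (log2 ratio 0.99).

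Genotype at a fixed treatment. KD against vector was fitted over the mock and the BIX ratio. No member was called (9 at an unadjusted p below 0.05), and limma called 15 of 10128 genes (0.148%, 1735 at an unadjusted p below 0.05). The median member was at 0.21, against 0.02 over all genes tested. In mock 30 of 35 members were above 0 (median 0.23, all genes 0.011). These signs all come from 1 value per group and are not separate observations. PHGDH was 91.4 and 66.7 FPKM (mock, BIX) in vector and 119 and 96.5 in KD (log2 difference 0.45, limma adjusted p = 0.142), and ASNS was at 0.44 (limma adjusted p = 0.184). A filter added after the data were seen kept genes at an FPKM of at least 1 in both lines. Without either cGAS ratio, limma made calls only under this filter, members among them. With all genes kept it called no member and no other gene. Singly, 1 member was 2-fold apart in mock (SLC7A11, lower, where 0.96% of genes were) and none with BIX (1.87%).

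cGAS KO against cGAS WT called 7 members (19.9% of all genes, 9.58% higher and 10.4% lower), SLC38A2 (0.81) and AARS (0.61) higher and SHMT2 (-0.77), DDIT4 (-0.58), SARS (-0.52), CARS (-0.48) and MTHFD2 (-0.37) lower. SHMT2 was 260 and 189 FPKM (mock, BIX) in cGAS WT and 176 and 95.4 in cGAS KO. AARS was 98.6 and 148 FPKM in cGAS WT and 162 and 212 in cGAS KO. The units of this fit are 2 treatments of the same cells, so a call cannot be told apart from any other difference between the 2 cell populations, and without either U2OS ratio none was called. Among genes at an FPKM of at least 1 in both lines, 4 of 35 were called without either (all genes 16.5%). Singly, no member was 2-fold apart in mock (7.84% of genes) and 1 was with BIX (SLC7A11, lower, 11.7%). In the chaperone list, with XBP1 and ATF6, 7 of 13 genes were lower in cGAS KO (median -0.88), beside 5 of 11 other cytosolic synthetases and scaffold proteins.

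SETDB1 knockout. SETDB1 is a methyltransferase that places H3K9me3, and this set is the only one with separate replicate libraries. Of 36 members tested, DDIT4 alone was called, among 12543 genes of which 3.24% were called in the mean of the knockouts, 2.43% in KO1 and 2.46% in KO2 (called lower: 0.781%, 0.518% and 0.438%). DDIT4 was 20.0 and 25.8 FPKM in WT, 14.0 and 14.5 in KO1 and 14.9 and 14.2 in KO2, so the groups did not overlap and the WT libraries lay further apart than the 4 knockout libraries. It fell by 0.62 on the log2 scale in the mean of the knockouts (SE 0.11, limma adjusted p = 0.00657), by 0.64 in KO1 (limma adjusted p = 0.0182) and by 0.61 in KO2 (limma adjusted p = 0.0259), which share the WT libraries. Without WT replicate 2 the call was lost (log2 difference -0.45, limma adjusted p = 0.138). It was also lost in KO1 without KO1 replicate 1 (limma adjusted p = 0.0689) and in KO2 without KO2 replicate 1 or replicate 2 (0.0814 and 0.183).

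The other members stayed between -0.25 and 0.22 in the mean of the knockouts, with a median of -0.02 over all 36. ASNS had 39.9 ± 1.05 FPKM (SD, n = 2 for each group) in WT against 48.5 ± 7.30 in KO1 and 38.8 ± 3.76 in KO2. SLC3A2, the leading gene under BIX, was 89.3 ± 4.48 in WT, 82.3 ± 5.93 in KO1 and 75.6 ± 16 in KO2, and CEBPG was 19.5 ± 0.655, 21.0 ± 1.25 and 20.7 ± 0.650. All 4 knockout libraries lay above both WT libraries for 1 tested member, CEBPG, and below them for 3, DDIT4, AARS and EPRS (4 of 36, where 21.5% of all genes did not overlap). KO1 and KO2 did not differ for any member by limma (3 at an unadjusted p below 0.05), nor for any gene (0.0% called, 202 genes at an unadjusted p below 0.05). No stress response switch was called, and ATF4 was at -0.03. Of the other lists, 1 gene in all was called, the chaperone SDF2L1 (-0.51, limma adjusted p = 0.0197).

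**Figure D5:**
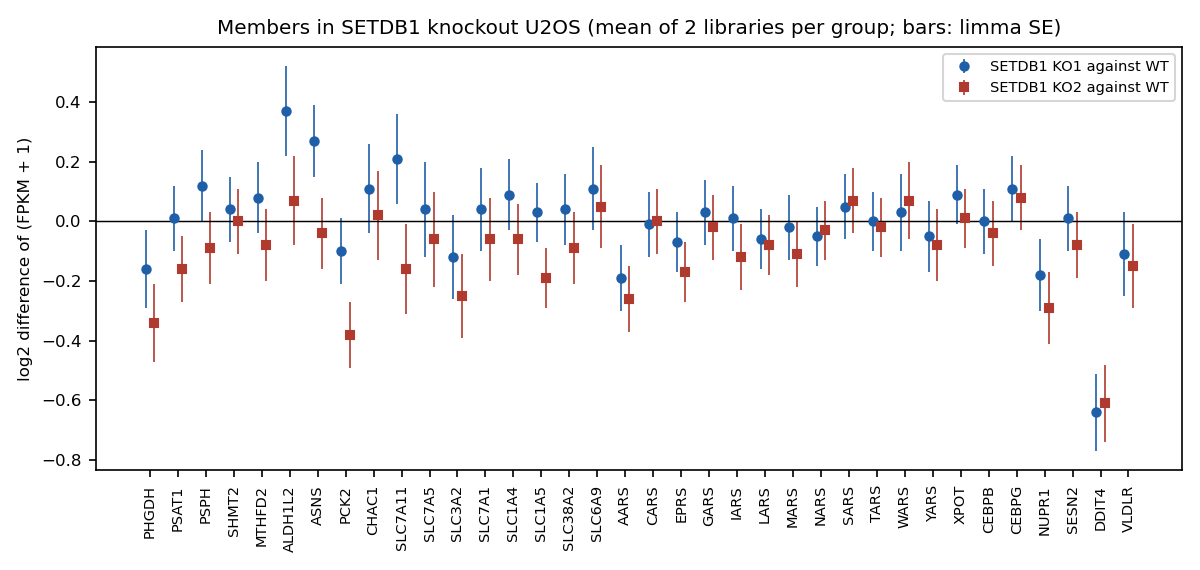
Log2 difference from WT, of FPKM + 1 (y axis), in SETDB1 KO1 (blue circles) and KO2 (red squares) for the 36 tested members (x axis), each from 2 libraries per group, with limma standard errors as bars. DDIT4 is the one member well below 0, at -0.64 and -0.61.

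DDIT4 thus was lower in 2 of the U2OS contrasts, with BIX and with SETDB1 knockout, and higher with BIX in L929. The SETDB1 set and the ATG5 set were normalised separately and no test joins them.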

How the data were processed

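Poly(A) RNA was sequenced on an Illumina HiSeq instrument as paired ends, per the labels' protocols. The submitters' processing notes name FastQC, cutadapt, TopHat2, Cufflinks, hg19 (GRCh37) and mm10 (GRCm38). Versions, annotation and strandedness: not given in the sources used here. In their deposited files the authors gave FPKM per gene, in 3 tables, 1 per set. Read counts and absolute depth are unknown, so no counting interval is given. The 8 chromatin immunoprecipitation samples of the 22 were not analysed here.

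Of repeated symbols the entry with the highest mean was kept, and joined loci were kept as 1 gene. In the ATG5 set this set aside a second entry of SLC1A4 (mean FPKM 1.235, kept 4.778), SLC6A9 (0.615, kept 5.161) and TARS (1.338, kept 136.408). FPKM was used as log2(FPKM + 1), whose fold changes understate those of low genes. limma 3.58.1 in R 4.3.3 was run with a variance trend, on simulated data first. SETDB1 set: 6 libraries, genes at FPKM of at least 1 in 2. BIX and genotype: 4 log2 ratios per fit, 1 mean per cell line, genes matched by symbol in either case, FPKM of at least 1 in 2 of 8 values. Each gene had 1 variance over both lines. P-values were adjusted (Benjamini-Hochberg) over all genes and called below 0.05. Single comparisons were counted at 2-fold. Nothing says that libraries or backgrounds are separate cultures, so p-values measure the spread between these samples only. Replicate numbers 1 and 2 of the SETDB1 set were not taken to pair the libraries, since the labels name nothing shared and not every correlation passed 0.1. The members and lists were chosen with earlier results of these data known. Named are all members, up to 3 called genes with the largest difference in each other list, the targets and ATF4, except for results that are not reported here. Promoter sequences are from RefSeq, human, GRCh38.p14, not the build of the files.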

Additional observations from a re-analysis of the deposited data

Results flagged for a closer look

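The response to BIX differed between U2OS and L929 for 16 members in the test of the difference itself (limma on 4 ratios, U2OS minus L929). On the log2 scale the U2OS response was higher for SLC3A2 by 1.87, SESN2 by 1.57, MARS by 1.24, CEBPB by 1.24, YARS by 1.22, SLC7A5 by 1.21 and PCK2 by 1.19. It was also higher for TARS by 0.90, SARS by 0.82, WARS by 0.81, CARS by 0.74, GARS by 0.69, NARS by 0.57 and CEBPG by 0.57. It was lower for SLC38A2 (-0.97) and DDIT4 (-1.51). For PCK2 both lines fell, and L929 fell further, whereas SESN2, SLC7A5 and DDIT4 were called in opposite directions. NARS was closest to the threshold (limma adjusted p = 0.0498) and was called in 3 of 6 alternatives that keep all ratios.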

How the results depend on the processing

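Leaving out 1 library or ratio at a time, limma called 0 to 1 members in the mean of the SETDB1 knockouts, in KO1 and in KO2, 0 to 30 for BIX in U2OS, 0 to 27 in L929, 0 to 28 across the 4 backgrounds, 0 to 26 for the difference between lines, 0 to 12 for KD against vector and 0 to 20 for cGAS KO against WT. These ranges join the fits on all genes with fits on genes at an FPKM of at least 1 in both lines, the latter added after the data were seen. The share of all genes called also rose and fell between these fits, so a member count alone is no result about the members. In the fits on the 2 BIX ratios of each line the zeros came from leaving out a U2OS ratio with all genes kept. For cGAS KO against WT, 3 members with no call turned with the ratio left out: without the mock ratio of the cGAS set SLC7A11, SLC1A4 and SLC1A5 were at -2.01, -0.51 and -0.46, and without its BIX ratio at 0.94, 0.54 and 0.34, each called in the fit on expressed genes. With no filter on low values DDIT4 was not called in the knockout mean, KO1 or KO2 (0 members each, adjusted p = 0.0692, 0.127 and 0.147). With the replicate number as a block, 1, 1, 1 and 0 members were called in the knockout mean, KO1, KO2 and KO1 against KO2, the same counts as without it, while genes called in the knockout mean went from 407 to 506. Replicate deviations correlated at 0.376, 0.004 and 0.201 between groups.

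Fitted on its own, also added later, L929 had 0 members called with all genes and 12 with genes expressed in that line. At 1.5-fold the single comparisons counted 16 members in vector, 14 in KD, 7 in cGAS WT and 13 in cGAS KO for BIX (all genes 32.0%, 33.0%, 35.6% and 47.3%), and 9 in mock and 8 with BIX for cGAS KO against WT (22.0% and 32.1%). With a pseudocount of 0.1 the mock count of cGAS KO against WT was 1, and with median centring its BIX count was 2. Outside the fits that left out 1 library or ratio, alternatives left 2500 values of single members on their side of the threshold, added 45 calls and lost 48, and turned none. These values include the fits of each line on its own, with 2 ratios. They also count main-fit values again with the joined loci left out, which could not move. BIX in U2OS called 15 members with no filter, 22 at FPKM of at least 5, and 23 where both lines had to reach an FPKM of 1, also added later (all genes 28.4%, 44.2% and 43.9%). The causes were not tested. Fits with 4 ratios have few degrees of freedom, and a member that missed the threshold is not shown to be unchanged.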
